A study of Mus musculus with 8 samples.

Results

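The ER-Golgi coat and cargo receptor genes are the genes of the protein machinery that buds and receives vesicles between the endoplasmic reticulum (ER) and the Golgi apparatus. A list of 37 mouse gene symbols was looked up in the deposited expression table, and all 37 were found among its 24013 symbols. They comprised 11 genes of the COPII coat, 9 of the COPI coat with its ARF GTPases, 13 cargo and retrieval receptors, and 4 SNAREs and tethers. The list was drawn up by function and by no measured value in the rule itself, and all 37 genes passed the filter on low values (1 FPKM or more in 2 or more of the 8 libraries) that 11190 genes passed.

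Newly made secretory proteins leave the ER in vesicles coated with COPII, which is laid down by the small GTPase SAR1, with an inner layer of SEC23 and SEC24, which binds cargo, and an outer cage of SEC13 and SEC31. COPI, a coat recruited to membranes by ARF GTPases, carries escaped ER residents and recycling receptors back from the Golgi. Paneth cells of the small intestinal crypt are filled with secretory granules and a large ER, and absorptive enterocytes use the same route to export lipoprotein particles.

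The cells came from Lyz1CreER; R26R-tdT mice of mixed C57/BL6 and 129 background, aged 8 to 14 weeks, that had all received 1 dose of 10 mg tamoxifen. In these mice tamoxifen turns on the red tdTomato label (tdT) in cells that use the Lyz1 promoter, a Paneth cell promoter, and the label is inherited by their progeny. Viable EpCAM+ CD45- epithelial cells were sorted into a tdT+CD24+ gate, which the submitters call Paneth cells, and a tdT+CD24- gate, which they call derivative cells. The groups were non-irradiated CD24+ (n = 2 libraries), irradiated CD24+ taken 5 days after radiation (n = 3) and irradiated CD24- taken on the same day (n = 3), and no non-irradiated CD24- library was analysed here. The labels name neither the mouse behind each library nor a number of mice pooled, so p-values measure the spread between these libraries only, which may be technical.

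Expression was measured by RNA sequencing and deposited as FPKM, a count of fragments divided by transcript length and by the fragments mapped in that library. The FPKM of a library summed to between 1329221 and 1638347 in the CD24+ libraries and between 540467 and 582799 in the CD24- libraries. The 10 Paneth cell markers alone summed to between 269100 and 382900 FPKM in CD24+ libraries and between 3468 and 20800 FPKM in CD24- libraries. Each result is therefore given on the FPKM as deposited and after median-of-ratios scaling, which divides each library by the median ratio of its genes to their geometric mean (factors 0.528 to 0.993 in CD24+ libraries and 1.33 to 1.48 in CD24- libraries). The Lyz1 level, 19020 to 48890 FPKM in CD24+ libraries, was 2576, 814 and 384 FPKM in the CD24- libraries, and all 10 Paneth cell markers were lower there on both scales. All 9 enterocyte markers tested were higher in CD24- than in irradiated CD24+ cells (median log2 fold change 4.60 as deposited and 4.04 scaled), and their summed level ran from 389 to 2050 FPKM in CD24+ and from 15040 to 34020 FPKM in CD24- libraries. Between the irradiated groups all 5 stem cell markers were lower on both scales, with summed levels of 979 to 1227 FPKM in irradiated CD24+ and 52.5 to 434.5 FPKM in CD24- libraries. Of 6 tuft cell markers tested, 5 were lower as deposited and 6 scaled (summed levels of 6.19 to 16.8 and 1.67 to 3.21 FPKM). Of 8 goblet cell markers 3 were higher and 2 lower, or 2 and 4 scaled (9145 to 15180 and 5819 to 10950 FPKM), and of 8 enteroendocrine markers 2 were higher and 2 lower, or 1 and 2 scaled (277 to 1104 and 355 to 3176 FPKM). The part of these cell types in the differences of the coat genes was not tested. In a sorted population, fewer cells of a type and less RNA per cell cannot be told apart.

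A shared feature that the choice of genes did not use is the DNA sequence at their starts. Promoters (250 bases before to 50 bases after a transcript start, RefSeq, build GRCm38.p6) were matched by symbol for 33 of the 37 genes, all but Arcn1, Kdelr2, Lman1 and Tmed2. The letters TGACGTGG, the core of the unfolded protein response element that the factors XBP1 and ATF6 are known to bind, were found on either strand in the promoters of 8 of the 33 genes (24.2%), against 0.714% of 27025 genes with a promoter in the table and 1.06% of 8428 genes that also passed the expression filter. The shorter letters CCACG were present in 25 of the 33 (75.8%), against 35.5% of all genes and 52.7% of tested genes, and they are contained in the longer core read on the other strand. The full ER stress element, CCAAT and CCACG separated by 9 bases, was found in 0 of the 33, against 0.137% of all genes. A match describes the letters only, and no binding was measured. The 8 genes are Sec16b, Sec23a, Sec24d, Copb1, Copb2, Arf1, Kdelr3 and Stx5a. A window around the core, in capitals, is shown for each on the strand that reads TGACGTGG, because this is the sequence these genes have in common. Stx5a has the core on both strands, and the window shown is that of the minus strand match.
Sec16b, chr1:157506741-157506770, plus strand: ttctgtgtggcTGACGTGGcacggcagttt
Sec23a, chr12:59011993-59012022, minus strand: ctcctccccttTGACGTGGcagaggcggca
Sec24d, chr3:123267459-123267488, plus strand: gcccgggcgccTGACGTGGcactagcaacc
Copb1, chr7:114254690-114254719, plus strand: aagtccttggcTGACGTGGaagggggcggg
Copb2, chr9:98563713-98563742, minus strand: ggccaacccacTGACGTGGaacttccggga
Arf1, chr11:59228228-59228257, minus strand: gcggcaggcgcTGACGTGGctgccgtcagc
Kdelr3, chr15:79516367-79516396, minus strand: tggccgcgcggTGACGTGGcggggcggcca
Stx5a, chr19:8741422-8741451, minus strand: tcctaactcggTGACGTGGctgctgcgcca
The base after the core is c in 6 of these windows and a in 2, Copb1 and Copb2. Longer stretches, the 150 bases before the start and on the strand of the gene, are given for 2 members that the comparisons below treat differently, Sec24d of the COPII coat and the retrieval receptor Kdelr3, with the core or its reverse complement CCACGTCA in capitals.
Sec24d, chr3:123267346-123267495, plus strand: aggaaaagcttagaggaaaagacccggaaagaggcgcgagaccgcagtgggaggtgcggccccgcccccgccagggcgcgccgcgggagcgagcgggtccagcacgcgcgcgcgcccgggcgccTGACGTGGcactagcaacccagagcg
Kdelr3, chr15:79516258-79516407, plus strand: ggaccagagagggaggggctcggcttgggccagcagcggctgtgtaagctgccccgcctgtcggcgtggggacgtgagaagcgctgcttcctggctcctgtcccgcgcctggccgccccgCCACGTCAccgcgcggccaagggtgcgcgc
In Sec24d the core lies 26 to 19 bases before the start, and in Kdelr3 it lies 30 to 23 bases before the start.

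The first comparison asked how labelled cells outside the Paneth cell gate differed from cells inside it 5 days after irradiation. The COPII and COPI coats were mostly higher in CD24- cells and the cargo receptors split in both directions. On the deposited FPKM, 25 of the 37 genes were higher and 3 were lower in CD24- cells (limma on log2(FPKM + 1), Benjamini-Hochberg adjusted p under 0.05 over 11190 genes). With median-of-ratios scaling, 20 were higher and 8 were lower. The background is broad. Of all genes tested, 48.6% were called higher and 7.27% lower as deposited, and 32.4% higher and 24.4% lower after scaling. The 37 genes had a median log2 fold change of 0.92, against 0.51 for all genes, and of 0.35 after scaling, against 0.04. As deposited, 9 of 11 COPII genes were higher, as were 8 of 9 genes of COPI with ARFs, 6 of 13 cargo and retrieval receptors and 2 of 4 SNAREs and tethers. After scaling those counts were 8, 6, 5 and 1. When each library was instead rescaled to the same sum (TPM), which moves the median of all genes to 1.603, 34 of the 37 genes were called higher and 1, Copz2, lower, along with 89.4% and 2.32% of all genes.

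**Figure D1:**
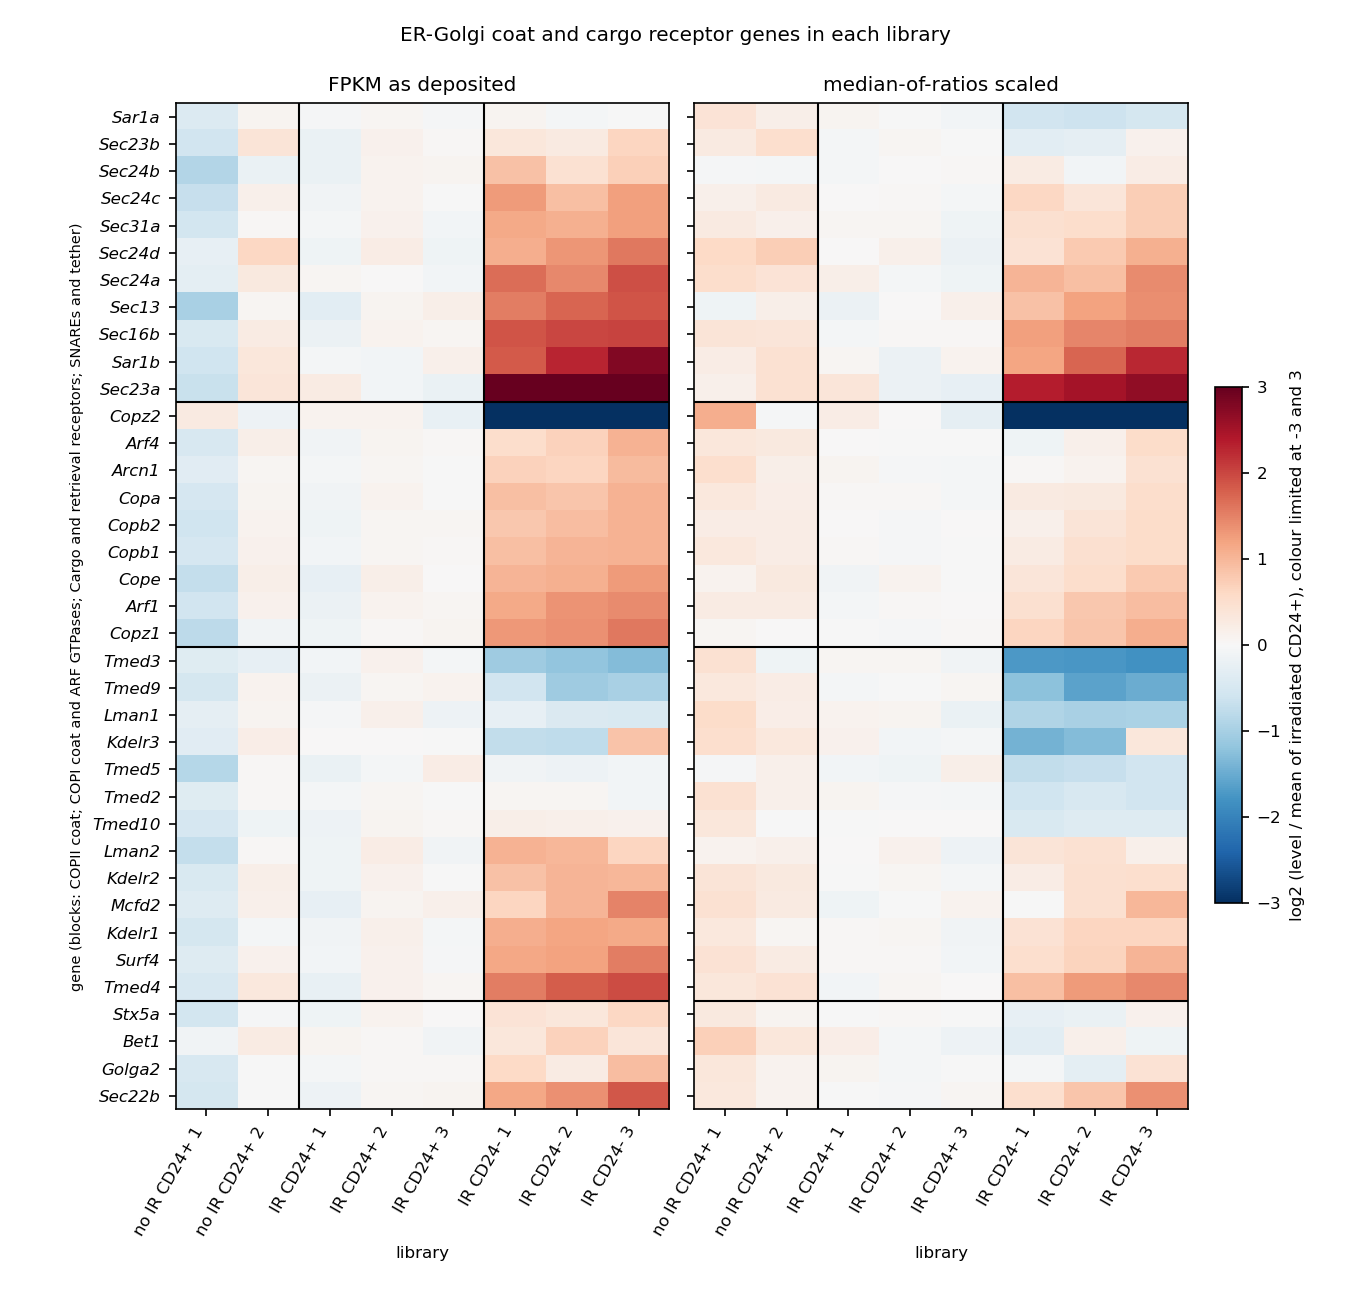
Level of each of the 37 genes (rows, in blocks by class) in each of the 8 libraries (columns), as log2 of the level over the mean of the irradiated CD24+ (IR CD24+) libraries, for deposited FPKM (left) and after median-of-ratios scaling (right). Sec23a is the darkest red and Copz2 the darkest blue in each of the 3 CD24- libraries on both scales, while the first non-irradiated library is pale blue for most genes as deposited and pale red after scaling.

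In what follows the FPKM of a gene is listed by group, first the 2 non-irradiated CD24+ libraries, then the 3 irradiated CD24+ libraries and then the 3 irradiated CD24- libraries, each in order of replicate number. SAR1, the GTPase that starts COPII assembly, is encoded by a pair of genes that differed. Sar1b, the form that enterocytes need for chylomicron export, was at 22.7 and 43.2, then 32.7, 32.1 and 37.8, and then 122, 166 and 235 FPKM. The CD24- libraries were all above the CD24+ libraries, with a 5.10-fold difference of means (log2 fold change 2.27 ± 0.30 SE, adjusted p = 9.74e-05, limma) that was 1.71 ± 0.25 after scaling. Sar1a was at 26.9 and 37.8, then 35.2, 37.6 and 35.1, and then 38.2, 34.3 and 35.5 FPKM, nearly level across the irradiated groups. Its log2 fold change was 0.00 ± 0.20 as deposited (adjusted p = 0.997) and -0.55 ± 0.11 after scaling, where it was called lower (adjusted p = 0.00248).

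SEC23, the inner coat subunit that stimulates GTP hydrolysis by SAR1, also has 2 genes. Sec23a was at 4.46 and 9.04, then 8.36, 6.60 and 6.11, and then 57.2, 58.8 and 63.5 FPKM. It had the largest increase of the 37 genes, 8.52-fold between the means (2.93 ± 0.24 on the log2 scale, adjusted p = 7.53e-06), and stood at the 97.1 percentile of all genes tested. After scaling the difference was 2.38 ± 0.17 (adjusted p = 2.87e-05). An antisense transcript, Gm17529, covers 8.9% of the exonic bases of Sec23a, and reads of the 2 strands were not separated in this library type. Sec23b was at 22.6 and 43.4, then 29.4, 36.8 and 34.1, and then 42.3, 40.2 and 51.9 FPKM, and although its CD24- libraries lay above the irradiated CD24+ ones, it was not called (0.41 ± 0.26, adjusted p = 0.197; -0.15 ± 0.14 after scaling).

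The SEC24 subunits select cargo. Sec24a was at 4.53 and 6.83, then 5.76, 5.63 and 5.24, and then 17.7, 15.1 and 21.1 FPKM, and Sec24b, its closest relative, at 3.46 and 5.57, then 5.52, 6.80 and 6.72, and then 11.8, 8.68 and 10.4 FPKM. Both were higher in CD24- cells as deposited, Sec24a by 1.52 ± 0.20 and Sec24b by 0.62 ± 0.20 on the log2 scale. After scaling the call held for Sec24a (1.0) and was lost for Sec24b (0.11, adjusted p = 0.409). Sec24c was at 17.6 and 31.7, then 26.3, 30.5 and 28.1, and then 68.3, 52.6 and 66.6 FPKM, and Sec24d, which with Sec24c forms the other branch of the family, at 22.9 and 42.0, then 24.9, 31.8 and 24.7, and then 57.6, 67.8 and 80.8 FPKM. As deposited, every CD24- library was above every CD24+ library in both genes. The difference from irradiated CD24+ cells was 1.11 ± 0.24 for Sec24c and 1.31 ± 0.26 for Sec24d (0.55 and 0.75 scaled, both called). After scaling, Sec24d in CD24- cells (39.02, 49.63 and 60.65) overlapped its level in non-irradiated CD24+ cells (43.32 and 48.41).

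The outer cage and the exit site scaffold followed. Sec13, a cage subunit that also serves in nuclear pores, was at 28.8 and 59.0, then 45.7, 60.3 and 64.2, and then 163, 190.4 and 211 FPKM. Its partner Sec31a was at 32.7 and 49.0, then 45.9, 52.6 and 45.2, and then 106, 101 and 113 FPKM. The increase was 1.72 ± 0.29 for Sec13 and 1.14 ± 0.22 for Sec31a, and both were called higher after scaling as well (1.16 and 0.58). Sec16b, which organises ER exit sites, was at 4.97 and 8.04, then 5.99, 7.29 and 7.09, and then 25.1, 27.0 and 27.9 FPKM, a low level that rose 3.93-fold (1.83 ± 0.20, adjusted p = 2.92e-05; 1.3 scaled). Over the 9 COPII genes called higher as deposited, the adjusted p ran from 7.53e-06 to 0.0234.

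In the COPI coat and its ARF GTPases 8 of the 9 genes were higher as deposited, by between 0.75 and 1.41 on the log2 scale, and Copz2 was lower. Copa, the alpha subunit, was at 39.4 and 59.3, then 52.4, 60.9 and 55.4, and then 106, 99.5 and 115 FPKM. Copb1 (beta) was at 30.1 and 46.7, then 40.5, 44.5 and 44.0, and then 80.0, 87.3 and 89.2 FPKM and Copb2 (beta prime) at 41.5 and 68.1, then 57.8, 65.1 and 65.5, and then 110.0, 119 and 129.7 FPKM. These 3 genes had log2 fold changes of 0.91 ± 0.23, 0.98 ± 0.22 and 0.92 ± 0.24, and of 0.35, 0.42 and 0.35 after scaling, all called. Arcn1, the delta subunit, was at 60.5 and 79.7, then 73.3, 79.2 and 75.8, and then 123, 119 and 148 FPKM, and Cope, the epsilon subunit, at 44.0 and 82.6, then 61.6, 82.9 and 73.9, and then 147, 152 and 178 FPKM. Cope was called higher on both scales (1.12 ± 0.27 and 0.56 ± 0.14), and Arcn1 as deposited only (0.76 ± 0.22; 0.20 scaled, adjusted p = 0.287).

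The zeta subunit again has 2 genes, and they went in opposite directions. Copz1 was at 38.8 and 61.8, then 60.3, 68.5 and 70.3, and then 163, 173 and 200.1 FPKM, higher in every CD24- library (1.41 ± 0.24, adjusted p = 0.000534; 0.85 ± 0.13 scaled). Copz2 was at 27.6 and 20.6, then 24.5, 24.6 and 19.5, and then 2.39, 1.19 and 0.617 FPKM. Its mean fell to 0.0611 of that in irradiated CD24+ cells (-3.38 ± 0.26, adjusted p = 7.31e-06; -3.71 ± 0.31 scaled, adjusted p = 4.29e-05), and it ranked 49 from the lowest of 11190 genes. The pseudocount of 1 shortens this fold, since the CD24- values lie near 1 FPKM. At the depth estimated from the steps between low FPKM values, the CD24- values stand for about 104, 43.2 and 26.9 fragments. Lyz1, the Paneth cell lysozyme, was also highest in the first CD24- library and lowest in the third, at 2576, 814 and 384 FPKM, and the part of residual CD24+ cells in the Copz2 level was not tested.

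The ARF GTPases that recruit COPI were higher in CD24- cells. Arf1 was at 94.1 and 153, then 124, 152 and 147, and then 309.7, 358 and 379 FPKM, and Arf4 at 85.5 and 136, then 111, 126 and 123, and then 172, 194 and 248 FPKM. Arf1 was higher by 1.3 ± 0.27 (0.74 scaled, called) and Arf4 by 0.75 ± 0.27 (0.19 scaled, adjusted p = 0.378). The gene Pde12 shares 14.63% of the exonic bases of Arf4. Overlapping genes share between 0.28% and 7.51% for Copa, Tmed5, Surf4, Sec24c, Stx5a, Golga2, Tmed10 and Kdelr3. Reads there may belong to either gene (GENCODE M21 annotation of build GRCm38).

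**Figure D2:**
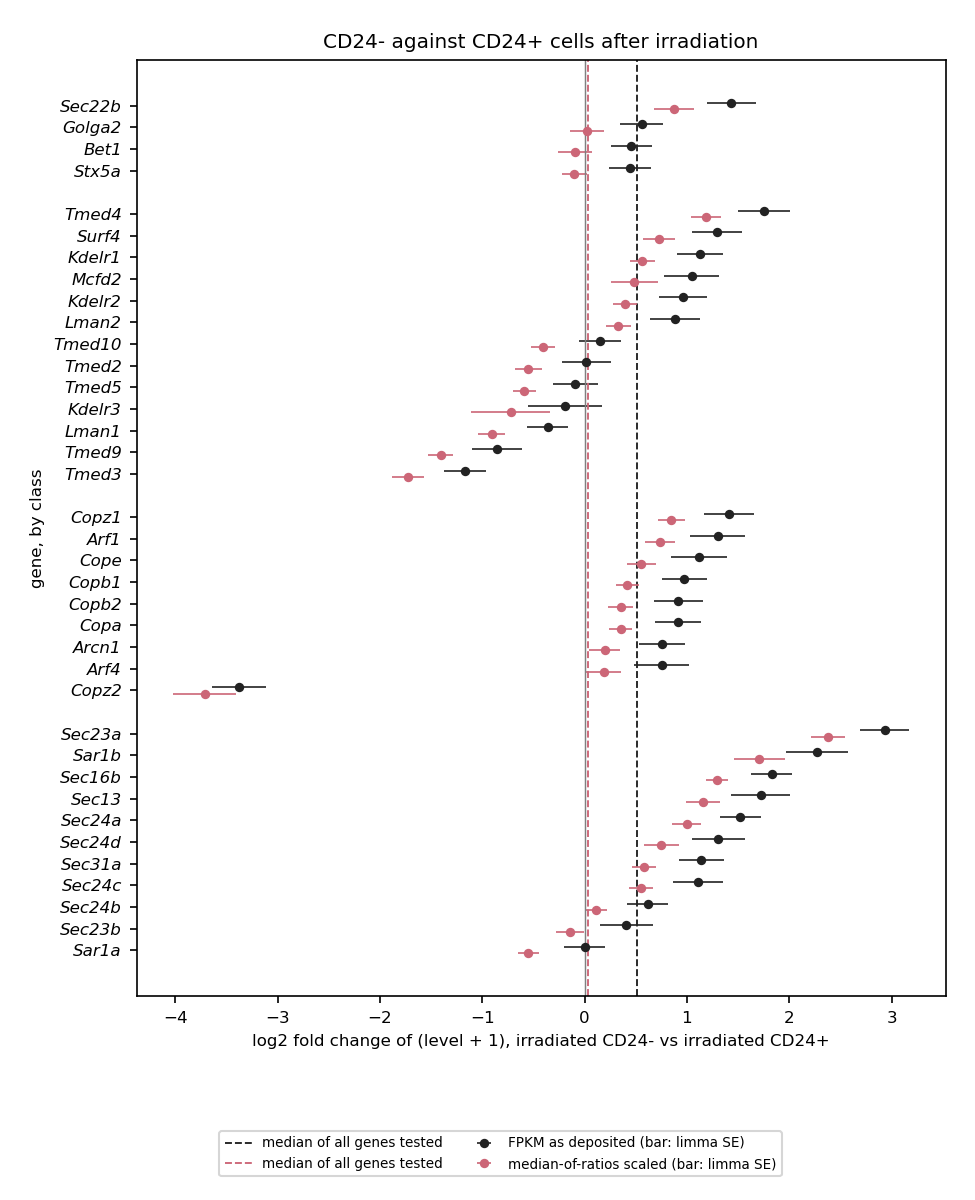
Log2 fold change of irradiated CD24- against irradiated CD24+ cells for the 37 genes, in blocks by class, with the limma standard error as bars, for deposited FPKM (black) and after scaling (red). Dashed lines mark the median of all 11190 genes, 0.51 as deposited and 0.04 scaled, and scaling moves the points to the left, so that Sar1a and most of the lower receptors fall clearly below 0.

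The cargo and retrieval receptors divided. KDEL receptors return ER chaperones that carry the KDEL signal. Kdelr1 was at 45.6 and 63.3, then 61.0, 72.4 and 62.9, and then 138, 148 and 145 FPKM and Kdelr2 at 51.8 and 79.7, then 64.8, 77.7 and 70.3, and then 129.6, 144 and 142 FPKM. As deposited, both were higher in every CD24- library (1.13 ± 0.22 and 0.96 ± 0.24; 0.56 and 0.39 scaled, all called). After scaling, Kdelr2 in the first CD24- library (87.76) was below the non-irradiated CD24+ libraries (98.12 and 91.90). Kdelr3 was at 16 and 23.1, then 20.3, 20.4 and 19.9, and then 12.0, 12.0 and 36.6 FPKM. A single CD24- library was above and the other two were below all CD24+ libraries, and no change was called (-0.19 ± 0.36, adjusted p = 0.669; -0.72 ± 0.38 scaled, adjusted p = 0.139).

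TMED proteins are transmembrane receptors of the p24 family that work as complexes of different members. Tmed3 was at 71.2 and 76.8, then 86.8, 101 and 87.7, and then 43.5, 40.1 and 37.0 FPKM, and Tmed9 at 58.4 and 90.5, then 73.8, 87.01 and 89.9, and then 56.2, 39.9 and 42.5 FPKM. Both were lower in CD24- cells on both scales, Tmed3 by -1.17 ± 0.20 on the log2 scale (adjusted p = 0.000577; -1.72 scaled) and Tmed9 by -0.85 ± 0.25 (adjusted p = 0.0118; -1.41 scaled). Under the TPM scale both turned positive, to 0.08 for Tmed3 and 0.40 for Tmed9. Tmed4 went the other way, at 26.3 and 46.2, then 31.9, 40.6 and 38.1, and then 107, 129.9 and 143 FPKM (1.75 ± 0.25, adjusted p = 0.000178; 1.19 scaled). Tmed2 had the highest FPKM of the 37 genes in every CD24+ library, at 148 and 195, then 184, 199 and 189, and then 198, 200 and 181 FPKM. Tmed10 was at 39.5 and 51.2, then 50.6, 59.6 and 57.4, and then 63.6, 62.2 and 60.6 FPKM and Tmed5 at 4.94 and 9.22, then 7.78, 8.66 and 10.5, and then 8.39, 8.04 and 8.48 FPKM. These 3 genes were not called as deposited (0.02, 0.15 and -0.09), and all 3 were called lower after scaling (-0.55, -0.40 and -0.59), so their direction rests on the scale.

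Among the lectin receptors, Lman1, which with Mcfd2 ferries coagulation factors and other glycoproteins out of the ER, was at 33.9 and 43.2, then 40.1, 45.5 and 36.6, and then 34.6, 30.1 and 29.8 FPKM. All 3 CD24- libraries were below the irradiated CD24+ libraries, which was not called as deposited (-0.36 ± 0.20, adjusted p = 0.154) and was called lower after scaling (-0.91 ± 0.13, adjusted p = 0.000617). Its cofactor Mcfd2 was at 35.9 and 51.8, then 39.4, 49.3 and 52.2, and then 72.9, 95.7 and 133 FPKM, higher as deposited (1.05 ± 0.27, adjusted p = 0.00644) and not called after scaling (0.49, adjusted p = 0.0994). The related lectin Lman2 was at 20.6 and 34.9, then 31.3, 39.4 and 31.4, and then 70.2, 68.2 and 53.3 FPKM (0.89 ± 0.24; 0.33 scaled, adjusted p = 0.0485). Surf4, a receptor known to export lipoproteins and other soluble cargo, was at 80.2 and 115, then 98.8, 114 and 102, and then 234, 243 and 302 FPKM and higher on both scales (1.3 ± 0.25 and 0.73 ± 0.16).

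Of the fusion machinery, the SNARE Sec22b stood apart from its partners. Sec22b was at 15.6 and 22.2, then 20.2, 23.3 and 23.9, and then 50.1, 58.6 and 82.3 FPKM, higher on both scales (1.43 ± 0.24, adjusted p = 0.000423; 0.88 scaled). The SNAREs Bet1, at 28.0 and 35.4, then 31.7, 30.6 and 27.8, and then 37.9, 48.6 and 38.9 FPKM, and Stx5a, at 18.1 and 25.9, then 24.0, 28.4 and 26.8, and then 35.0, 33.6 and 40.7 FPKM, were not called on either scale (0.46 and 0.45 as deposited, -0.10 and -0.10 scaled). Golga2, a golgin that tethers vesicles at the cis-Golgi, was at 8.51 and 11.9, then 11.5, 12.2 and 12.2, and then 18.1, 14.2 and 22.8 FPKM and was called higher as deposited only (0.56 ± 0.21, adjusted p = 0.0441; 0.03 scaled).

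Where a subunit is encoded by more than 1 gene, the ratio of paralogues within a library does not depend on how libraries are scaled, apart from the pseudocount. Between irradiated CD24+ and CD24- libraries the mean log2 ratio of Sar1b to Sar1a went from -0.07 ± 0.16 to 2.20 ± 0.52 (SD, n = 3 each), and that of Sec23a to Sec23b from -2.11 ± 0.35 to 0.42 ± 0.13. Sec23b was thus the more abundant SEC23 transcript in every CD24+ library, and Sec23a in every CD24- library. The ratio of Copz2 to Copz1 went from -1.50 ± 0.27 to -6.29 ± 0.68. Smaller shifts without overlap between the groups were seen for Lman1 to Lman2 (a difference of -1.25), Tmed3 to Tmed2 (-1.19), Kdelr3 to Kdelr1 (-1.32), Sec24a to Sec24b (0.91) and Arf4 to Arf1 (-0.55). Sec24d to Sec24b (0.69) and Kdelr2 to Kdelr1 (-0.17) did not overlap either, so most pairs separated. Sec24d to Sec24c differed by 0.20, with overlapping groups. Copb1 and Copb2 are not paralogues and were included as a comparison within the same complex. Their ratio differed by 0.06, with overlapping groups. The 12 pairs were tested in 3 comparisons (36 tests), and the smallest 2-sided p that an exact permutation of 3 against 3 or 2 against 3 libraries can give is 0.10, which is 0.180 after adjustment, so none of these differences can pass the threshold.

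**Figure D3:**
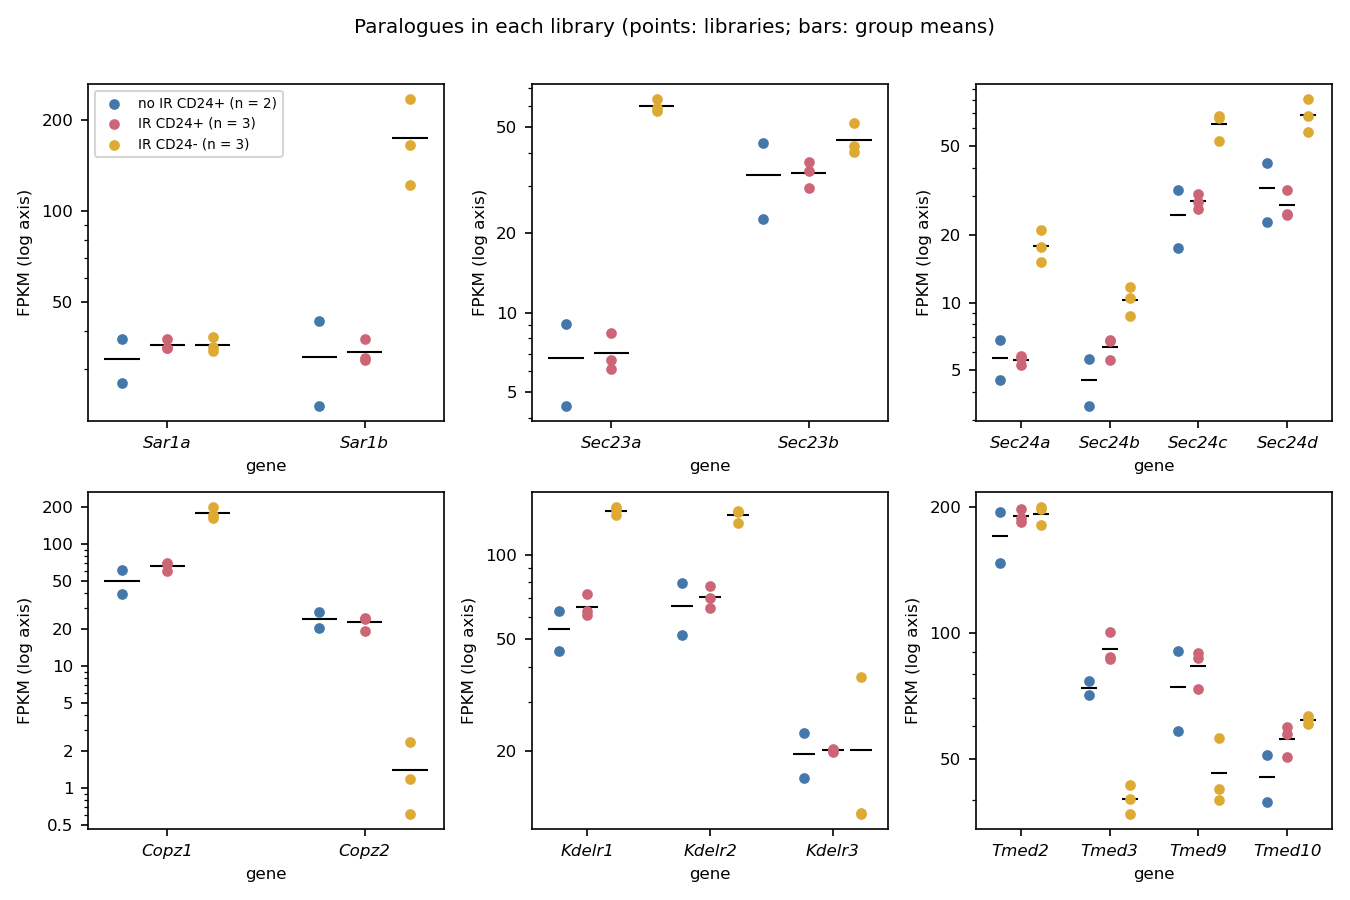
FPKM on a log axis for 6 sets of paralogues, with a point for each library and a bar for each group mean. The CD24- libraries (yellow) are above the CD24+ libraries for Sar1b and Sec23a but not for Sar1a, and Copz2 lies between 0.617 and 2.39 FPKM there while Copz1 lies between 163.0 and 200.1 FPKM.

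The second comparison asked what differed in the CD24+ gate 5 days after irradiation, and none of the 37 genes was called in either direction on either scale. This is also the background, since 0% of all genes were called higher and 0% lower as deposited, and 0% higher and 0.0268% lower after scaling. At an unadjusted p under 0.05, 0 of the 37 genes passed as deposited, against 1424 of all genes. After scaling 9 passed, all lower, against 872 of all genes (7.79%). The adjusted p over the 37 genes was at least 0.348 as deposited and at least 0.416 scaled.

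As deposited, the 37 genes had a median log2 fold change of 0.19 with irradiation, against 0.32 for all genes, and after scaling the median was -0.27, against -0.03. On either scale most of the genes lay below the median gene, 32 of 37 as deposited and 34 of 37 scaled. That gap was -0.13 as deposited and -0.24 scaled. As deposited it was 0.002 when no filter on low values was used, which was not run on the scaled values. As deposited the irradiated and non-irradiated libraries overlapped for 36 genes, and only Tmed3 lay above without overlap (34.2% of all genes did so, and 1.13% lay below). After scaling, all 3 irradiated libraries were below both non-irradiated libraries for 27 of the 37 genes, against 16.8% of all genes, and above for 0, against 11.3%. The first non-irradiated library had the smallest scaling factor, 0.528, and the median FPKM of the 37 genes in it was 28.8, against 46.2 in the other non-irradiated library and 38.1 to 44.5 in the irradiated CD24+ libraries. Scaling brought the first to 54.6 and the second to 53.2, against 39.5 to 45.9. Without the second non-irradiated library, 15 of the 37 genes were called higher as deposited, along with 46.4% of all genes, and 0 were after scaling.

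The 3 lowest log2 fold changes as deposited were those of Sec24d (-0.20 ± 0.29), the SNARE Bet1 (-0.07 ± 0.23) and Copz2 (-0.07 ± 0.29), and the 3 highest those of Sec24b (0.44 ± 0.23), Sec13 (0.43 ± 0.32) and Copz1 (0.43 ± 0.27). Scaling changed the sign of 32 of the 37 log2 fold changes. Sec24d was lowest on both scales. Its scaled levels were 43.3 and 48.4 in the non-irradiated and 29.0, 32.1 and 25.5 in the irradiated CD24+ libraries, a log2 fold change of -0.66 ± 0.19 (unadjusted p = 0.00789, adjusted p = 0.416). Sec24b, at scaled levels of 6.55 and 6.42 and 6.42, 6.85 and 6.96, did not follow it (0.05 ± 0.12). The log2 ratio of Sec24d to Sec24c within a library, free of the scale, was 0.38 ± 0.02 (SD, n = 2) without and -0.07 ± 0.12 (n = 3) with irradiation, and that of Sec24d to Sec24b was 2.57 ± 0.20 and 1.93 ± 0.18. Neither pair of groups overlapped, and each exact permutation p was 0.10, the smallest possible. Such a separation was not particular to Sec24d. The ratio of Sec24a to Sec24b differed by -0.445, close to the -0.443 of Sec24d to Sec24c. Kdelr3 to Kdelr1 differed by -0.213 and Kdelr2 to Kdelr1 by -0.139, and these ratios too were lower with irradiation without overlap. The remaining pairs overlapped. Of the 3 paralogue ratios that differed most between the gates, Copz2 to Copz1 differed by -0.49 with irradiation, Sar1b to Sar1a by -0.05 and Sec23a to Sec23b by 0.02, all with overlapping libraries. The first of these ran from -1.03 to 0.039 with a library left out.

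**Figure D4:**
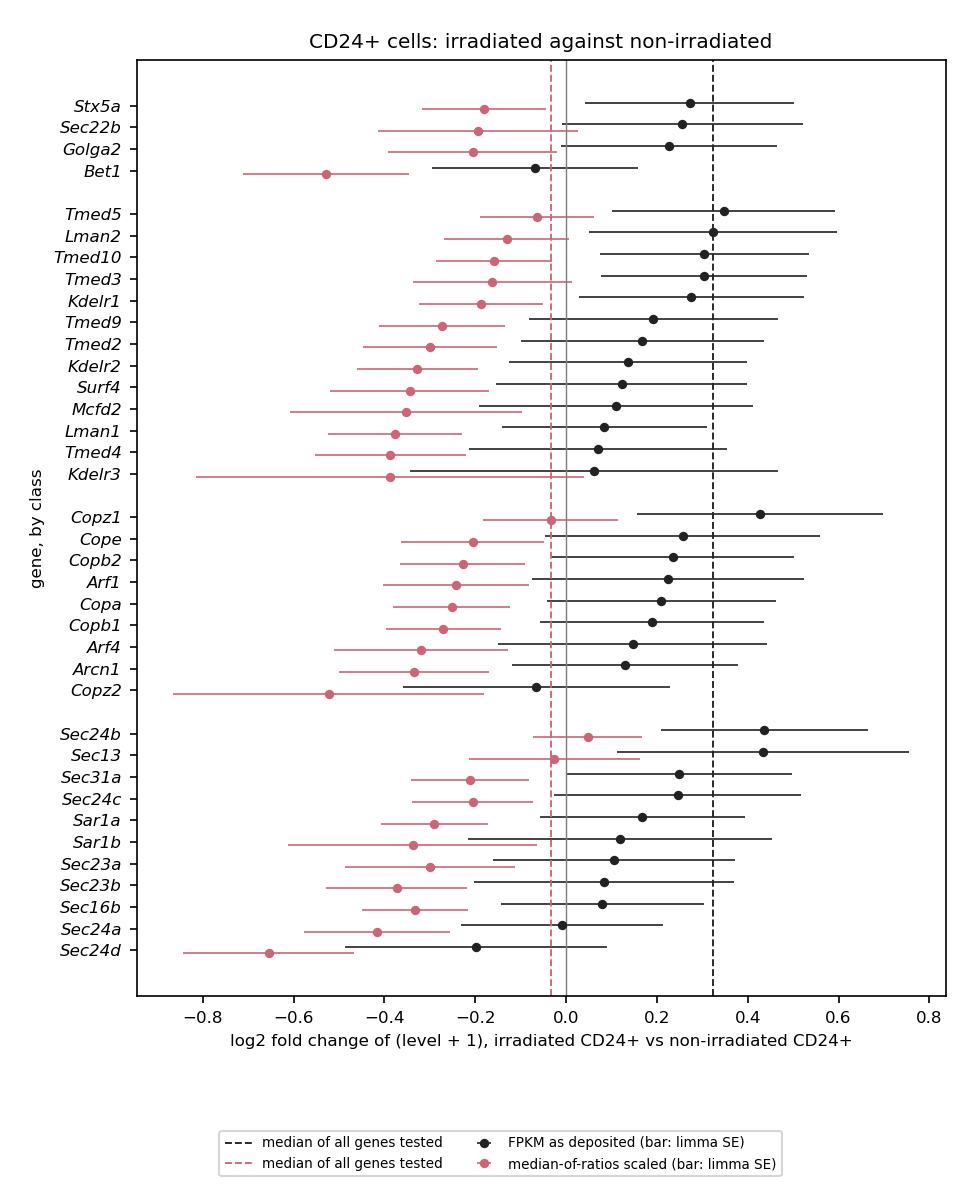
Log2 fold change with irradiation within the CD24+ gate for the 37 genes, with limma standard errors, for deposited FPKM (black) and after scaling (red). Dashed lines mark the median of all genes, 0.32 as deposited and -0.03 scaled, and on each scale most of the 37 points lie to the left of their line.

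On the deposited FPKM, summed levels of markers of some cell types differed between these groups, and those of others overlapped. The summed level of the 8 tuft cell markers was 22.1 and 29.1 FPKM in the non-irradiated and 9.35, 16.8 and 6.19 FPKM in the irradiated CD24+ libraries, and that of the 8 enteroendocrine markers was 147 and 148 FPKM against 277, 847 and 1104 FPKM. As deposited, the 5 stem cell markers summed to 543.2 and 829.5 FPKM against 1227, 1120 and 978.6 FPKM, without overlap. The first non-irradiated library, with the lower sum, had the smallest scaling factor, 0.528, and the sums were not compared after scaling. None of the 5 stem cell markers had an unadjusted p under 0.05 on either scale (limma). The 6 cell cycle markers summed to 66.28 and 151.6 FPKM against 137.7, 177.4 and 201.0 FPKM, with overlap. The 9 enterocyte markers summed to 389 and 2050 FPKM against 742.5, 635.4 and 1166 FPKM, with overlap. The 8 goblet cell markers summed to 11940 and 10590 FPKM against 9145, 15180 and 14260 FPKM, also with overlap. The 10 Paneth cell markers summed to 382900 and 324800 FPKM against 281700, 269100 and 273600 FPKM, without overlap. None of the 6 tuft, 8 enteroendocrine, 5 stem, 6 cell cycle, 9 enterocyte, 8 goblet and 10 Paneth markers tested was called as deposited. After scaling 1 tuft marker was called lower. The part of these cells in the levels of the coat genes was not tested. The 7 immune markers summed to at most 4.10 FPKM in any library.

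The last comparison set the CD24- group against the CD24+ group from mice without irradiation, which changes gate and irradiation together and shares its libraries with the other two. As deposited, 26 of the 37 genes were higher and 3 lower, against 65.7% and 4.99% of all genes, and after scaling 11 were higher and 10 lower, against 29.6% and 22.0%. Leaving out the first or the second non-irradiated library, with a single library left in that group, lowered the scaled count of higher genes. The share of all genes called higher fell as well. The share of coat genes called higher as deposited was thus near that of all genes. Sec23a (3.04 ± 0.27; 2.08 scaled), Sar1b (2.39 ± 0.34; 1.37 scaled) and Sec13 (2.15 ± 0.32; 1.13 scaled) had the largest increases. Copz2 was the lowest (-3.44 ± 0.29; -4.24 scaled), and Tmed3 was lower on both scales. Tmed9 was called lower after scaling (-1.68, adjusted p = 6.93e-05) and narrowly as deposited (-0.66, adjusted p = 0.0493), a call that was lost with the replicate number as a block (adjusted p = 0.0590), with a pseudocount of 0.1, without a filter, with array weights and with only the groups compared. It was also lost without the second non-irradiated library (-0.35, adjusted p = 0.192), without any one of the irradiated CD24+ libraries and without CD24- replicate 2 or 3 (adjusted p from 0.0722 to 0.158). On the TPM scale Tmed9 was called higher (0.75, adjusted p = 0.0455). With the block, the scaled calls of Sec31a, Arf1, Kdelr1 and Sec22b as higher and of Bet1 as lower were lost (adjusted p from 0.0530 to 0.0855), and Kdelr3 was called lower (adjusted p = 0.0250). Sec24d, higher as deposited (1.11 ± 0.29, adjusted p = 0.00550), was not called after scaling (0.10, adjusted p = 0.693).

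In every library the median FPKM of the 37 genes was high among the 11190 genes tested. It lay between the 90.7 and 93.9 percentiles in CD24+ libraries and between the 89.1 and 90.6 percentiles in CD24- libraries. By this position within a library, which does not depend on scaling, every CD24- library was slightly below every CD24+ library. The lowest of the 37 lay between the 45.8 and 50.5 percentiles in CD24+ libraries and between 3.35 and 16.4 in CD24- libraries. In CD24+ libraries Tmed2, Arf1 and Arf4 had the highest FPKM, in that order in each library. In CD24- libraries Arf1 was highest and Surf4 next. The lowest gene was Copz2 in each CD24- library and Sec24b or Sec24a in each CD24+ library.

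Other genes of the ER-Golgi route and of related membrane traffic were taken from a list of 87 that holds none of the 37. Of these, 80 were tested. In the comparison of gates 50 were higher and 2 lower as deposited (median log2 fold change 0.68), and 29 higher and 12 lower after scaling (median 0.15), against 48.6% and 7.27% of all genes as deposited and 32.4% and 24.4% scaled. The largest increases were in Mia2, a relative of the exit site receptor for bulky cargo (2.64 ± 0.25), Tfg, which organises COPII carriers at exit sites (2.28 ± 0.28), and the SNARE Vti1b (2.11 ± 0.25). Tmed6, a p24 family member, was at 147 and 114 FPKM, then 105, 134 and 107 FPKM, and then 10.3, 7.47 and 5.50 FPKM, and it fell by 3.76 on the log2 scale (SE 0.25, adjusted p = 5.58e-06). The cycling receptor gene Ergic1 was the other one called lower (-1.21 ± 0.25). All 5 were called in the same direction after scaling. With irradiation in CD24+ cells none of the 80 was called on either scale, and the 3 smallest p-values as deposited were those of Trappc4 (0.78 ± 0.25), Lman2l (0.57 ± 0.19) and Trappc1 (0.62 ± 0.23), each with an adjusted p of 0.348. Against non-irradiated CD24+ cells, 63 were higher and 2 lower in CD24- cells as deposited and 24 and 18 after scaling, the latter close to the shares of all genes (29.6% and 22.0%). They were led by Mia2 (2.81 ± 0.28), Pdcd6, a calcium-binding partner of SEC31 (2.48 ± 0.29), and Tfg (2.41 ± 0.32), with Tmed6 (-3.93 ± 0.28) and Ergic1 (-1.09 ± 0.28) lower.

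Transcripts of 13 regulators of secretory capacity were looked up as well. Between the gates 3 were higher and 5 lower as deposited, against 48.6% and 7.27% of all genes. After scaling 2 were higher and 7 lower, against 32.4% and 24.4%. Creb3l3, a membrane-bound factor of liver and gut, was at 2.92 and 17.6 FPKM, then 8.93, 6.33 and 7.70 FPKM, and then 166, 180 and 248 FPKM (4.51 on the log2 scale; 3.96 scaled), and Creb3 was also higher on both scales (1.64; 1.09 scaled). Creb3l2 was called higher as deposited only (0.89; 0.39 scaled, adjusted p = 0.127). Bhlha15, known as MIST1 and a scaling factor of secretory cells, was at 51.2 and 36.9 FPKM, then 50.6, 54.5 and 37.6 FPKM, and then 5.48, 1.83 and 1.43 FPKM (-3.76; -4.17 scaled). Creb3l4 (-1.72; -2.23 scaled), the mucosal ER stress sensor Ern2 (-1.68; -2.17 scaled), Spdef (-1.42; -1.93 scaled) and Ern1 (-0.69; -1.19 scaled) were lower on both scales too. Xbp1, which encodes a factor that binds the TGACGTGG core, was at 69.6 and 102 FPKM, then 86.3, 88.5 and 98.2 FPKM, and then 117, 114 and 124 FPKM, and it was not called (0.38; -0.18 scaled). The ER chaperone gene Hspa5 was not called on either scale (0.20; -0.37 scaled, adjusted p = 0.0569). None of the 13 was called with irradiation in CD24+ cells.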

How the data were processed

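RNA was read from sorted cells with a library kit that keeps no strand (TruSeq RNA v2), per the labels' protocols. The deposited values are FPKM, made by the authors. TopHat2 2.1.0, StringTie 1.3.4 and build mm9 stand in the submitters' processing notes, and no annotation, filter or read depth is given in the sources used here. The table held 24015 entries. Depth was estimated from the steps between low FPKM values and GENCODE lengths, and is approximate.

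Genes at 1 FPKM or more in 2 or more libraries (11190) were tested with limma 3.58.1 in R 4.3.3 on log2(FPKM + 1), all 8 libraries in one fit, eBayes with a mean-variance trend, 2-sided, Benjamini-Hochberg over all genes tested. Median-of-ratios scaling was applied as an alternative throughout. The fit was tested on simulated data. SE is limma's, and SD is between libraries. The 37 genes, the other lists and the tests were chosen with earlier results of these data known. The text names every one of the 37 genes, gives each library's value for those called between the gates, for the 6 lowest and 6 highest there and for paralogues, and names the 3 largest called changes per direction from the other ER-Golgi genes.

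Same-numbered irradiated CD24+ and CD24- libraries deviated together over all genes tested (correlations of 0.366, 0.231 and 0.402), a pairing that comes from the data and the shared numbers in the labels. Differently numbered libraries of these groups gave -0.381 to 0.0518. Non-irradiated and irradiated CD24+ libraries with different numbers reached 0.254, so a value of this size need not mark a pair. Deviations from a group mean are also not independent within the group. Motifs were counted with Python 3.11.15 on RefSeq promoters, and figures drawn with matplotlib 3.10.9. The alternatives were other pseudocounts, filters and scalings, the replicate number as a block, array weights, only the groups compared, and each library left out.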

Additional observations from a re-analysis of the deposited data

How the results depend on the processing

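In the comparison of gates the 37 genes gave 25 higher and 3 lower with a pseudocount of 0.1, without a filter and with a filter at 5 FPKM. Of all genes, 47.1%, 31.4% and 59.7% were called higher in these settings and 7.09%, 6.13% and 5.12% lower. The unchanged count thus stood against a changing background. The count of lower genes moved from 3 to 8 with median-of-ratios scaling, 1 with TPM and 5 with array weights (24.4%, 2.32% and 14.5% of all genes). With an irradiated library left out, 15 to 24 were higher and 2 to 9 lower over both scales, against 27.7% to 47.4% and 5.34% to 23.7% of all genes. With a non-irradiated library left out, which leaves a single one in that group, the higher count and its share both rose as deposited. The replicate block, which the numbers pair, left 25 higher and 3 lower (49.6% and 8.18% of all genes), or 20 and 8 when scaled (34.2% and 25.6%). It changed no call of the 37 genes in this comparison or with irradiation, and 7 in the last one. In the irradiated libraries alone, a choice made after seeing the data, it gave 28 and 4, against 55.7% and 8.57% of all genes. The median gap to all genes, 0.41, was 0.77 without a filter, 0.18 at 5 FPKM, 0.57 with TPM and 0.22 to 0.50 with a library left out.

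Called changes that turned sign were those of Sar1a (-0.55), Tmed10 (-0.40) and Tmed2 (-0.55) with median-of-ratios scaling, with or without the replicate block, and those of Tmed3 (0.078), Tmed9 (0.40), Lman1 (0.88), Tmed5 (1.05) and Kdelr3 (1.01) with TPM. With a library left out, over the deposited and the scaled fits together, Sar1a ran from -0.59 to 0.034 and Tmed10 from -0.41 to 0.20. In the same fits Tmed2 ran from -0.58 to 0.063 and Golga2 from -0.15 to 0.72. These ranges include the change of scale, so they do not give the effect of a library alone. The cause of the changes of sign was not tested, beyond the scale itself. The log2 ratio differences with irradiation ran from -1.03 to 0.039 for Copz2 to Copz1 and from -0.012 to 0.28 for Tmed3 to Tmed2.

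With irradiation in CD24+ cells, 0 to 15 genes were called higher with a library left out, and the median gap of -0.13 was 0.002 without a filter and ran from -0.29 to -0.093 with a library left out. In the last comparison the 26 higher and 3 lower became 11 and 10 with median-of-ratios scaling and 7 and 10 with the replicate block as well, 1 lower with TPM, and with a library left out 6 to 31 higher and 2 to 12 lower. The median gap of the last comparison, 0.25, was 0.74 without a filter, 0.012 at 5 FPKM, 0.094 scaled, 0.48 with TPM and 0.037 with scaling and block. It ran from -0.021 to 0.30 with a library left out, over both scales. A change of sign in a gene that no fit called was not counted as a reversal, and 32 such changes came with scaling in the irradiation comparison.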
